A study of Homo sapiens with 8 samples.

Results

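The genes examined here move lactate and acid out of cells and set pH on either side of the plasma membrane: the monocarboxylate transporters SLC16A1 (MCT1) and SLC16A3 (MCT4), their chaperone BSG (basigin, CD147), the carbonic anhydrases CA2, CA9 and CA12, the chloride-bicarbonate exchanger SLC4A2 (AE2) and the sodium-bicarbonate cotransporter SLC4A7 (NBCn1). They were chosen by gene name, with earlier results of these data known. Their members are the RefSeq transcripts of the deposited table that belong to these genes. The table listed 14 transcripts for the 8 genes, out of 24812 transcripts and 14528 named genes in all. RNA-seq was run on poly(A)-selected RNA of SQ20B cells, a single established line from a head and neck squamous carcinoma, with 4 biological replicates in normoxia and 4 in hypoxia. The hypoxic cells were kept in a chamber at 0.5% O2 for 16 h, both groups grew at 37°C under 5% CO2 in medium rich in glucose, and no other agent or genetic change was named for either group. Each condition was deposited as 1 FPKM value per transcript (the fragments of a transcript scaled to its length and to the mapped total) over its 4 replicates, so every level below is the authors' value for a condition, with no spread, no n and no test of a difference.

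Cells that lean on glycolysis make lactate and protons together, and monocarboxylate transporters carry the pair across the plasma membrane in the direction of the gradient. These carriers reach the surface only with an immunoglobulin-family chaperone such as basigin. Carbonic anhydrases interconvert CO2 and water with bicarbonate and protons: CA2 works in the cytosol, whereas CA9 and CA12 have their active site outside the cell, and CA9 is a textbook target of the hypoxia-inducible factors (HIF). Bicarbonate brought in by SLC4A7 neutralises acid in the cytosol, while SLC4A2 exports bicarbonate in exchange for chloride.

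HIF binds DNA at short elements whose core reads ACGTG or GCGTG, and the cores near the start sites of these genes are shown because the study compares cells with and without a stimulus that stabilises HIF. RefSeq promoters (assembly GRCh38.p14, 250 bases before to 50 bases after a start site) were available for 6 of the 8 genes, 15 promoters in all, with several for some genes, and those of one gene can overlap. SLC16A1 and CA2 had no entry. ACGTG was searched on both strands, with the palindrome CACGTG giving a match on each, and was present in 5 of the 15 promoters, against 21.4% of 35116 promoters of the same length. Among these 5, promoters 3 and 4 of SLC4A2 overlap and hold the same stretches. GCGTG was present in 9 of the 15, against 36.5% of all promoters. Each distinct stretch holding ACGTG is printed below over 30 bases on the strand of the gene, 5′ to 3′, with the bases of the match on either strand in capitals, and was placed on GRCh37, the build of the deposited table (hg19), by an exact match of its promoter.
CA9, plus strand, chr9:35673894-35673923: ctcgtttccaatgCACGTacagcccgtaca
SLC16A3, plus strand, chr17:80186844-80186873: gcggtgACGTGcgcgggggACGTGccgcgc
BSG, plus strand, chr19:572391-572420: gcaacgccgggtCACGTGcgccgccgcccg
SLC4A2 first stretch, plus strand, chr7:150759508-150759537: acgccccctgccCACGTGccacccaggccc
SLC4A2 second stretch, plus strand, chr7:150759541-150759570: cctccctgccccCACGTGgccaccgctcca
SLC4A2 last stretch, plus strand, chr7:150759649-150759678: ggcccagaggggCACGTGactgggaagggg
In CA9 the core lay on the minus strand, 14 to 18 bases before the RefSeq start site and 4 to 8 bases before the start of the CA9 locus in the deposited table. In SLC16A3 the pair of cores lay between 51 and 68 bases before the second of 5 RefSeq start sites, in an intron of 4 of 19 annotated transcripts (GENCODE on GRCh37). The BSG stretch lay 188 to 193 bases before the second of 2 start sites, in an intron of 2 of 21 annotated transcripts. The SLC4A2 stretches fell within introns of 9 of 20 annotated transcripts, and the last also overlapped an exon of 1 transcript. That last stretch lay after the start site of SLC4A2 promoter 3. Unlike the CA9 core, the SLC16A3, BSG and SLC4A2 stretches all lay after the start of their loci in the deposited table. The single CA12 promoter and both SLC4A7 promoters had no ACGTG, and GCGTG was found 2 times in CA12 and 3 times in the second SLC4A7 promoter. These matches describe the sequence and were not tested as binding sites.

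The 8 genes spanned more than 3 orders of magnitude in normoxia. SLC16A1 was the most abundant at 206 FPKM, followed by BSG at 31.0, SLC4A7 at 21.2, CA2 at 9.17, SLC16A3 at 2.74, SLC4A2 at 1.67, CA9 at 0.694 and CA12 at 0.117. In hypoxia the order was SLC16A1 at 176 FPKM, BSG at 40.3, CA9 at 21.6, SLC4A7 at 15.4, CA2 at 14.6, SLC16A3 at 3.97, SLC4A2 at 2.07 and CA12 at 0.147. The change in order was made by CA9, which stood next to last in normoxia and behind only SLC16A1 and BSG in hypoxia. With 1 value per condition, it cannot be said which neighbours in either order differ beyond their spread.

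**Figure D1:**
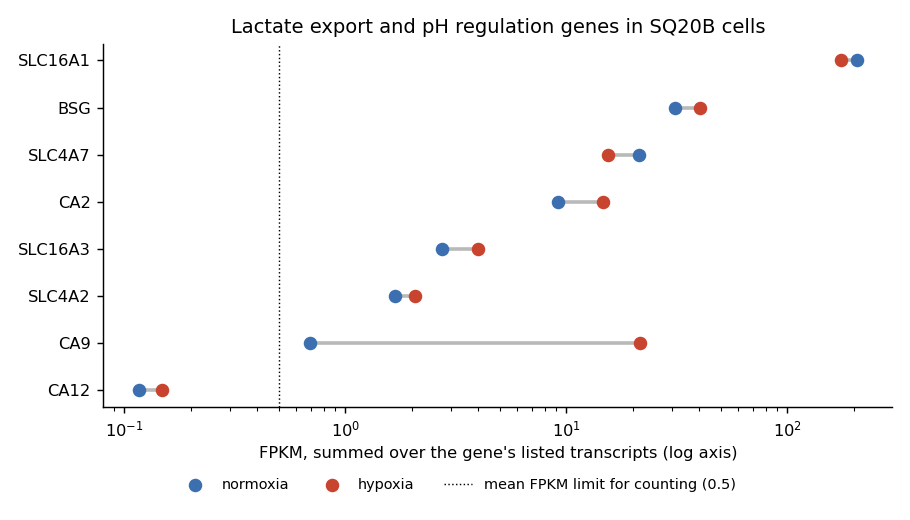
FPKM of each gene, summed over its listed transcripts, on a log axis, with 1 point per condition (blue normoxia, red hypoxia) joined by a grey line; each point is the authors' value over 4 replicates, without an error. CA9 spans the distance from 0.694 to 21.6 FPKM, while the other 7 genes keep their order from SLC16A1 at the top to CA12 at the bottom, apart from CA9 passing between them.

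Changes are given as log2((hypoxia FPKM + 0.1)/(normoxia FPKM + 0.1)), and a gene was counted if its mean FPKM over both conditions was at least 0.5. A change of at least 1.5-fold on this scale (0.58 in log2) was taken as the limit for counting, which is a size and not a test. Of the 8 genes, 7 passed the level limit and CA12 did not. CA9 and CA2 were at least 1.5-fold higher in hypoxia, which makes 2 of 7, against 9.95% of the 12106 genes counted. None of the 7 was at least 1.5-fold lower, against 11.2% of all genes. The median log2 change of the 7 genes was 0.38, beside -0.07 over all genes, with 5 genes above 0 and 2 below. Since the genes were chosen with earlier results of these data known, these comparisons with all genes are descriptive and give no independent support. Scaling both columns to equal sums moved every log2 change up by about 0.23, because the column sums were 536005 FPKM for normoxia and 458431 FPKM for hypoxia, and under that scaling SLC16A3 and BSG also passed 1.5-fold.

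CA9 had the second largest rise of all 12106 genes, behind NDRG1. It went from 0.694 FPKM in normoxia to 21.6 FPKM in hypoxia through its single listed transcript, NM_001216, on the plus strand of chromosome 9 (chr9:35673915-35681154). The log2 change was 4.77, a 27.4-fold difference on the scale with the pseudocount of 0.1 and a 31.2-fold ratio of the FPKM values themselves. The enzyme moved from percentile 5.66 of gene levels in normoxia to percentile 70.8 in hypoxia. Because the normoxia value is low and lies between the pseudocounts tried, the size of the change depended on the pseudocount. The log2 change was 3.74 with a pseudocount of 1 and 4.94 with 0.01.

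CA2, the cytosolic enzyme, was listed at 9.17 FPKM in normoxia and 14.6 FPKM in hypoxia through NM_000067 (chr8:86376131-86393721, plus strand). The log2 change was 0.66, or 1.59-fold, just past the limit, and it stayed past it with every pseudocount, scaling and level limit tried but not with a limit of 2-fold. CA2 exceeded CA9 by 13.2-fold in normoxia, whereas in hypoxia CA9 exceeded CA2 by 1.48-fold. CA12, the other enzyme with an extracellular active site, was at 0.117 and 0.147 FPKM (NM_001218, chr15:63615730-63674075, minus strand), under the level limit in both conditions. Only 1 of the 4 transcripts that RefSeq now curates for CA12 was listed, so its level is that of this transcript. On the listed values CA9 was 5.95 times the level of CA12 in normoxia and 147 times in hypoxia. Both ratios rest on a CA12 value under the level limit.

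Among the 15 carbonic anhydrase genes of a list drawn up for the pathway, 7 were listed and 4 were counted. Of these 4, CA2, CA5B and CA9 were at least 1.5-fold higher and none was lower, beside 9.95% and 11.2% of all genes. Without CA2, CA9 and CA12, 4 of 12 genes were listed and 2 counted, of which 1 (CA5B) was higher and none lower. CA13, named after its values were seen, was at 0.914 FPKM in normoxia and 0.937 FPKM in hypoxia (log2 change 0.03). CA5B, a mitochondrial carbonic anhydrase, was at 0.980 FPKM in normoxia and 2.01 FPKM in hypoxia (log2 change 0.97). A closely related pseudogene, CA5BP1, was listed at 1.43 and 1.17 FPKM, and reads that the 2 copies share could have been split between them, so the CA5B value is uncertain. The summed FPKM of the 7 listed genes was 12.4 in normoxia and 40.0 in hypoxia, a ratio of 3.24, and without CA9 the ratio was 1.57. CA2 made up 74.2% of that sum in normoxia and 36.5% in hypoxia, while the part of CA9 went from 5.62% to 54.1%. CA12 contributed 0.944% and 0.369%.

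**Figure D2:**
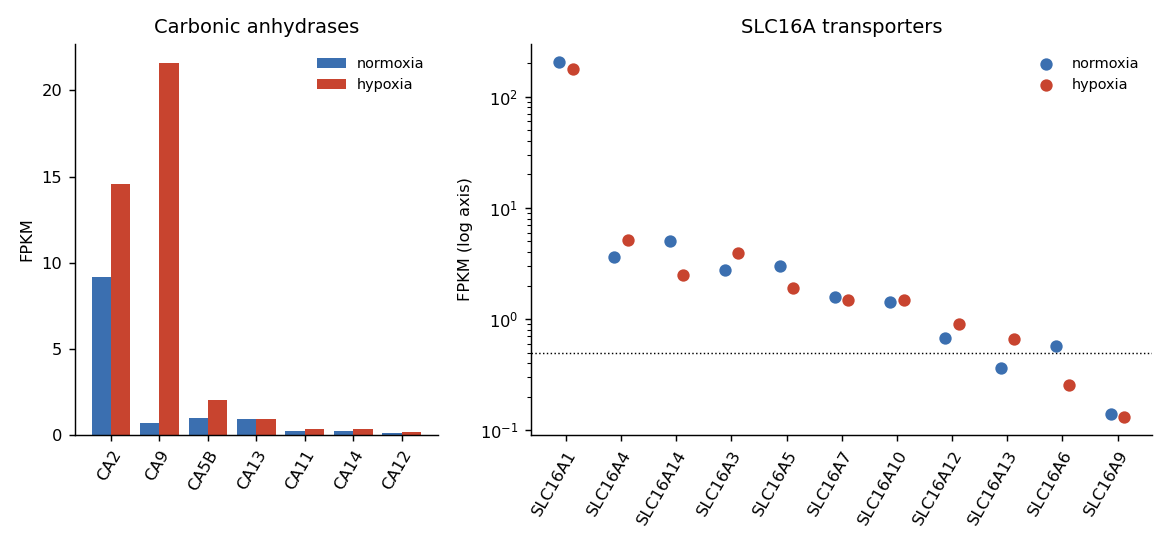
Levels of the listed carbonic anhydrases (left, bars from 0, FPKM) and of the SLC16A transporters reported here (right, points on a log axis, FPKM) in normoxia (blue) and hypoxia (red), each value being the authors' for the condition. The dotted line in the right panel marks 0.5 FPKM. CA2 is the tallest bar in normoxia at 9.17 and CA9 in hypoxia at 21.6, while SLC16A1 stands far above the other transporters in both conditions.

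SLC16A1, the widely expressed lactate and pyruvate carrier, was listed at 206 FPKM in normoxia and 176 FPKM in hypoxia (chr1:113454470-113498975, minus strand). The log2 change was -0.23, close to 0 under equal sums (-0.004) and 0.05 under quantile normalization, so that no direction can be given. Its level lay at percentile 96.6 of gene levels in normoxia and 96.7 in hypoxia. NM_003051 made up 99.6% of the summed value in normoxia and 99.7% in hypoxia. The other transcript, NM_001166496, was at 0.810 and 0.496 FPKM, a log2 change of -0.61, and was the only counted transcript of the 8 genes at least 1.5-fold lower. It was short of that limit with a pseudocount of 1, under equal sums and after centring, and under the level limit when that was raised to 1 FPKM. The same locus also holds the pseudogene AKR7A2P1, at 1.16 FPKM in normoxia and 1.01 FPKM in hypoxia. The antisense gene SLC16A1-AS1 was at 3.71 and 2.69 FPKM, and whether the strand of the reads was used in the counting was not given in the sources used here.

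SLC16A3, the low-affinity carrier associated with lactate export from glycolytic cells, was at 2.74 FPKM in normoxia and 3.97 FPKM in hypoxia (chr17:80186282-80197375, plus strand). The log2 change was 0.52, or 1.43-fold, just under the limit, and it passed the limit when changes were centred on the median of all genes (0.59) or scaled to equal sums (0.74). Only 1 of the 6 transcripts that RefSeq now curates for the gene, NM_001206952, was in the table, and the others were not analysed here, so the level is that of this transcript. On the listed values SLC16A1 exceeded SLC16A3 by 75.1-fold in normoxia and by 44.3-fold in hypoxia. SLC16A1 made up 91.5% of the FPKM summed over the SLC16A genes reported here in normoxia and 90.5% in hypoxia, and SLC16A3 1.22% and 2.04%.

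BSG was at 31.0 FPKM in normoxia and 40.3 FPKM in hypoxia (chr19:571277-583493, plus strand), a log2 change of 0.38 or 1.30-fold, which passed the limit only under equal sums (0.60). The listed FPKM of SLC16A1 was 6.64 times that of BSG in normoxia and 4.36 times in hypoxia. NM_198589 was the main transcript with 81.1% of the sum in normoxia and 82.7% in hypoxia, at 25.1 and 33.3 FPKM. NM_198591 was at 5.68 and 6.90 FPKM, and NM_198590 was under the level limit at 0.166 and 0.0513 FPKM. RefSeq now curates 5 transcripts for BSG. The other chaperones of this family, named after their values were seen, were near 0: NPTN (neuroplastin) had 98.3 and 100.5 FPKM (log2 change 0.03) and EMB (embigin) 29.5 and 29.8 FPKM (0.01).

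Over the other monocarboxylate transporters and chaperones of the pathway list that are reported here, 11 of 15 genes were listed and 9 counted, of which 1 was at least 1.5-fold higher and 2 lower, beside 9.95% and 11.2% of all genes, with a median log2 change of 0.03. SLC16A13 was at 0.362 FPKM in normoxia and 0.657 FPKM in hypoxia (log2 change 0.71). It reached the level limit only through its hypoxia value and was not counted with a level limit of 1 FPKM. The 2 that were lower were SLC16A14, at 5.02 and 2.51 FPKM (-0.97), and SLC16A5, at 2.99 and 1.92 FPKM (-0.61). With a pseudocount of 1, SLC16A14 alone stayed past the limit, as it did in this direction under equal sums and after centring. All 3 had under 6 FPKM in both conditions, a small part of the level of SLC16A1.

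SLC4A7, which imports bicarbonate with sodium, was at 21.2 FPKM in normoxia and 15.4 FPKM in hypoxia (chr3:27414212-27525911, minus strand), a log2 change of -0.46 that stayed below 0 under every scaling and short of the limit. All 3 listed transcripts had a negative log2 change. The main one, NM_001258379, was at 18.3 and 13.0 FPKM (-0.48) and made up 86.1% of the sum in normoxia and 84.5% in hypoxia. NM_001258380 was at 2.37 and 1.97 FPKM (-0.26), and NM_003615 at 0.579 and 0.425 FPKM (-0.37). RefSeq now curates 13 transcripts for the gene.

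SLC4A2, the housekeeping chloride-bicarbonate exchanger, was at 1.67 FPKM in normoxia and 2.07 FPKM in hypoxia (chr7:150755299-150773614, plus strand), a log2 change of 0.29 or 1.22-fold. NM_001199693 was at 1.49 and 1.75 FPKM, and NM_001199692, at 0.180 and 0.316 FPKM, was under the level limit. The part of the latter in the sum was 10.8% in normoxia and 15.3% in hypoxia, the largest shift between transcripts of one of the 8 genes at 4.49 percentage points. SLC4A7 exceeded SLC4A2 by 12.7-fold in normoxia and by 7.46-fold in hypoxia, with 2 of the 4 curated SLC4A2 transcripts in the table.

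Taking transcripts in place of genes, 11 of the 14 listed transcripts had a mean of at least 0.5 FPKM. Those at least 1.5-fold higher were the single transcripts of CA2 and CA9, so 2 of 11 against 10.5% of the 18190 transcripts counted. The 1 transcript at least 1.5-fold lower, the minor SLC16A1 form, compares with 14.3% of all transcripts. The table listed 14 of the 37 transcripts that RefSeq now curates for these genes, including both of SLC16A1 and the only one of CA9.

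**Figure D3:**
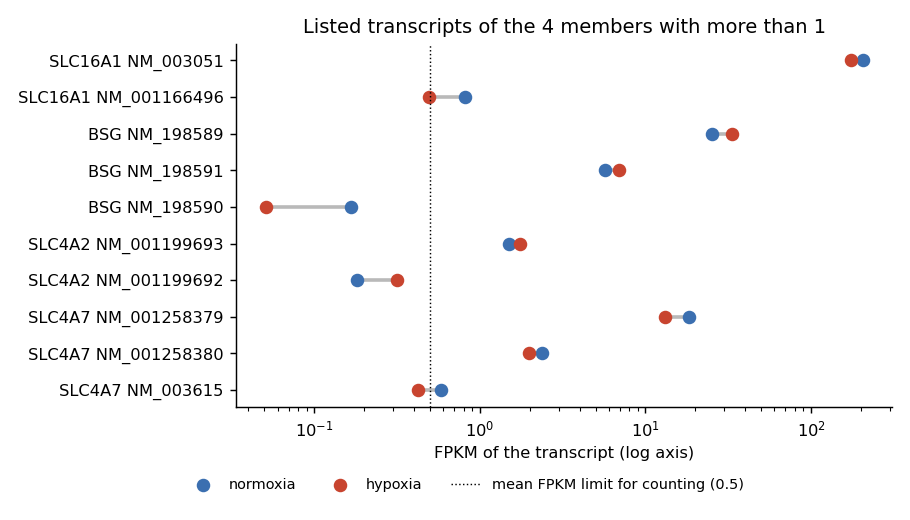
FPKM in normoxia (blue) and hypoxia (red) of the 10 listed transcripts of SLC16A1, BSG, SLC4A2 and SLC4A7, on a log axis, with the dotted line at 0.5 FPKM. In each gene 1 transcript carries most of the level in both conditions, and the 3 SLC4A7 transcripts all lie to the left in hypoxia.

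**Figure D4:**
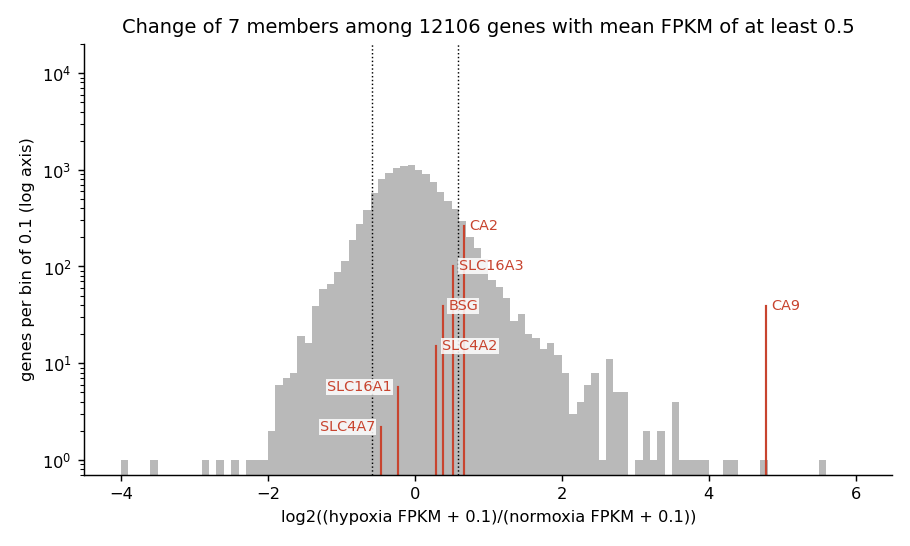
Histogram of the log2 change of 12106 genes in bins of 0.1 (log axis of counts), with the 7 counted genes as red lines whose heights only separate the names, and dotted lines at 1.5-fold in either direction. CA9 at 4.77 lies near the right end, CA2 at 0.66 just past the limit and SLC16A3 at 0.52 just inside it.

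Of 18 other bicarbonate and anion exchanger genes on the list, besides SLC4A2 and SLC4A7, 7 were listed and 5 counted, with 2 at least 1.5-fold higher (9.95% over all genes), none lower (11.2%) and a median log2 change of -0.13, which turned to 0.07 under equal sums. SLC26A6, an exchanger of chloride for bicarbonate and oxalate, was at 1.64 FPKM in normoxia and 2.64 FPKM in hypoxia (log2 change 0.66), and SLC26A11 at 0.362 and 0.714 FPKM (0.82). SLC26A11 reached the level limit only through its hypoxia value and was not counted with a level limit of 1 FPKM. Neither gene passed 1.5-fold with a pseudocount of 1, and SLC26A6 was also short of it when only the most abundant transcript per gene was used. In that setting the median of the list, with SLC4A2 and SLC4A7 included, was 0.14. With its 18.3 FPKM on average over the conditions, SLC4A7 was the most abundant gene of this family.

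Sodium-proton exchangers expel protons directly. Of 15 genes of this group and its regulators, 11 were listed and 8 counted, with 1 at least 1.5-fold higher (9.95% over all genes), 1 lower (11.2%) and a median log2 change of -0.08, which turned to 0.14 under equal sums. SLC9A7, an exchanger of the Golgi, was at 6.44 FPKM in normoxia and 10.3 FPKM in hypoxia (0.68). NHERF2, a scaffold protein that binds sodium-proton exchangers, was at 2.35 and 1.12 FPKM, or 2.01-fold lower in hypoxia. The most abundant gene, CHP1, a calcium-binding cofactor of the plasma membrane exchangers, was at 40.3 and 35.2 FPKM (-0.19).

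The vacuolar proton pump acidifies endosomes and lysosomes and can sit in the plasma membrane of tumour cells. Of 25 subunit and accessory genes, 22 were listed and 21 counted, with 1 at least 1.5-fold higher and 3 lower, beside 9.95% and 11.2% of all genes, and the median log2 change was -0.11, which turned to 0.11 under equal sums. The 3 that were lower, a count near that share, were ATP6V0B, at 32.4 FPKM in normoxia and 18.4 FPKM in hypoxia (-0.81), ATP6V0A2, at 11.2 and 6.51 FPKM (-0.77), and ATP6V0D1, at 18.6 and 11.8 FPKM (-0.66), each a subunit of the membrane sector. Under equal sums only ATP6V0B stayed past the limit. ATP6V1C2, a subunit of the cytosolic sector, was at 2.89 and 4.45 FPKM (0.60, short of the limit with a pseudocount of 1), and the most abundant gene, ATP6V0E1, at 253 and 234 FPKM (-0.11).

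The sodium-potassium pump maintains the sodium gradient that drives SLC4A7 and the sodium-proton exchangers. Of 6 subunit genes reported here, 2 were listed and counted. ATP1B1 was at least 1.5-fold higher in hypoxia, as were 9.95% of all genes, at 87.2 FPKM in normoxia and 148.6 FPKM in hypoxia (log2 change 0.77). The most abundant, ATP1B3, was at 176 and 154 FPKM (-0.20), a difference that turned positive under equal sums and under quantile normalization. Of 11 genes for proton and lactate sensing and for the proton channel, 3 were listed and none reached 0.5 FPKM, the highest being the proton channel HVCN1 at 0.139 and 0.216 FPKM.

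**Figure D5:**
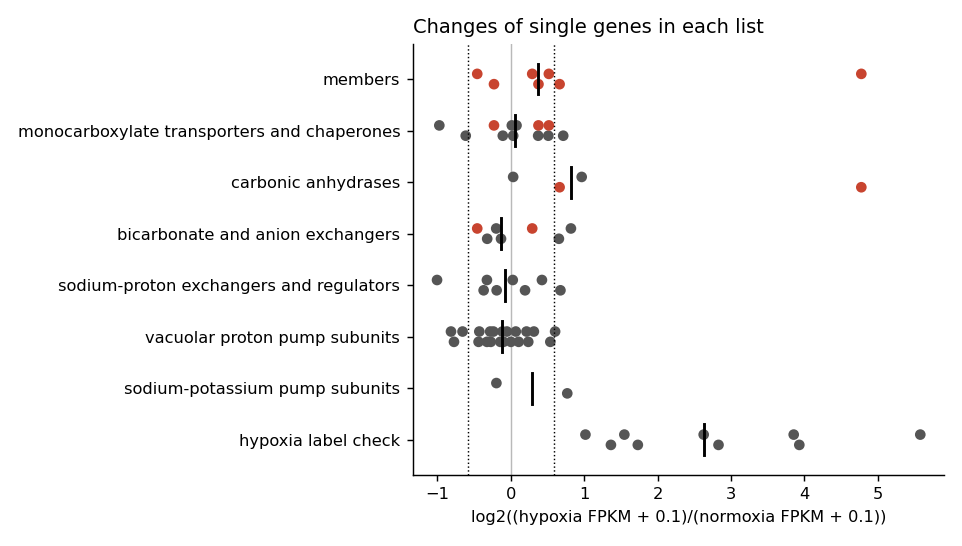
Log2 change of each counted gene by list, with the 7 counted genes of the set in red, other genes in grey, a black bar at the median of each list and dotted lines at 1.5-fold. Most transport genes lie within 1.5-fold, whereas CA9 at 4.77 falls within the range of the genes used to check the hypoxia labels, 1.02 to 5.58.

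The condition labels and the cell type were checked with genes outside the set. Of 10 genes known to rise in hypoxia, 9 were listed and LDHA was not. All 9 were at least 2-fold higher in hypoxia, with log2 changes from 1.02 (VEGFA) to 5.58 (NDRG1). The lists were drawn up with earlier results of these data known, so this outcome is not an independent check of the labels. Of 11 squamous epithelial markers, 9 were listed and 8 stayed within 1.5-fold, with KRT5 at 398 FPKM in normoxia and 442 FPKM in hypoxia, KRT6A lower at 5.10 and 3.26 FPKM, and KRT14 and PKP1 not listed. Of 10 markers of blood, endothelial, stromal and liver cells, 4 were listed, with a summed level of 7.32 FPKM in normoxia and 5.90 FPKM in hypoxia. CDH5 (4.78 and 2.83 FPKM) and CD68 (2.36 and 2.86 FPKM) were the 2 above 0.5 FPKM, and the defining markers PTPRC, CD3E, PECAM1, COL1A1, HBB and ALB were not listed. Why a gene was not listed is not known here, so its absence does not show that it was not expressed. The part of other cells in the values above was not tested, and fewer cells and less RNA per cell cannot be told apart in bulk RNA.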

How the data were processed

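Poly(A)-selected RNA of SQ20B cells was sequenced from 4 normoxic and 4 hypoxic cultures, labelled as biological replicates, with stranded TruSeq libraries. Per the submitters' processing notes and the study's methods, the authors aligned reads with STAR 2.3.0.1 to hg19 and quantified RefSeq transcripts with Cufflinks 2.1.1 (Cuffdiff) under standard parameters. The deposited FPKM values are the authors', 1 per transcript and condition, scaled to transcript length and mapped fragments. The table also holds the authors' log2 fold changes, test statistics, p-values and q-values, which were not used. No column of other samples was present (0). The table gives no counts. The study gives its depth only as a target and an average per sample, so no interval or floor is given for a value.

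Transcripts were given symbols through RefSeq (GRCh38.p14, names only), which matched 24293 of 24812 entries (97.9%). FPKM was summed per gene, a pseudocount of 0.1 was added, and features with a mean FPKM of at least 0.5 were counted at a limit of 1.5-fold. A pseudocount understates changes of low genes. Of the identifiers, 15 were listed more than once, none from the 8 genes. Locus starts in the table count from 0 and are printed from 1. Members and lists were chosen with earlier results of these data known. A few genes of the pathway and marker lists are not reported here and are left out of the counts, medians and sums of their lists. Genes named from each pathway list are those past the limit, at most 4 in each direction by size, and the most abundant gene, and others are said to be named after their values were seen. Alternatives were other pseudocounts, level limits, scalings, the most abundant transcript per gene, and a 2-fold limit. The procedure was tested on simulated data. Python 3.11.15, numpy 2.4.6, pandas 2.3.3 and matplotlib 3.10.9 were used.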

Additional observations from a re-analysis of the deposited data

How the results depend on the processing

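The count of 2 genes past 1.5-fold became 4 under equal sums (SLC16A3 and BSG added) and 1 at 2-fold, where CA9 alone remained. It was 3 with changes centred on the median, and 2 under every other pseudocount, level limit, quantile normalization and with the most abundant transcript. The median log2 change of the 7 genes, 0.38, became 0.60 under equal sums and 0.50 under quantile normalization. The 3 transcripts past 1.5-fold (2 higher, 1 lower) became 1 at 2-fold, 2 with a pseudocount of 1 or a mean FPKM of at least 1, and 4 with no level limit or under equal sums. The lower one, NM_001166496 of SLC16A1, was lost with a pseudocount of 1, a mean FPKM of at least 1, equal sums, centring and the 2-fold limit. No change past the limit turned its sign. Over all genes 46.9% of those past the limit were higher in hypoxia, against 78.9% under equal sums, 58.6% after centring and 57.8% under quantile normalization, so the split over all genes depends on the scaling. With a pseudocount of 1, genes past the limit numbered 719 higher and 1031 lower, against 1204 and 1361. At 2-fold there were 388 and 317, and under equal sums 2278 and 611. No paired analysis was possible because each condition holds 1 value over its replicates, and for the same reason no replicate could be left out and no spread was had. The table gives no counts, and the study gives its depth only as a target and an average per sample. No precision is therefore given for low values, as of CA12 and of CA9 in normoxia.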
